A study of Drosophila melanogaster with 29 samples.

Results

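Adult female flies without functional Mnn1 were compared with females that carry it. Mnn1 is the fly counterpart of MEN1, a tumour suppressor gene in humans, and its product is menin. Menin is a nuclear scaffold protein and a subunit of trithorax-type complexes that methylate histone H3 at lysine 4, a mark of active promoters. In vertebrates it also binds AP-1 and TGF-beta signalling factors. In human carriers its loss gives endocrine tumours, whereas flies that lack it are known to reach adulthood.

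The comparison used 4 of the 29 arrays of the series, chosen by their titles. The mnn- group held 2 arrays, titled X46_Y79 (array 7) and Y79_X46 (array 8), which carry a pair of mutant Mnn1 alleles. The non-mutant group held 1 array of wild-type (wt) females (array 1) and 1 array of X113_X84 control females (array 3). The titles do not say what X113 and X84 are. Beside these stand 2 arrays of heterozygous females, X113_Y79 (array 4) and X84_X46 (array 5), and 5 male arrays: wt, X113_X84 control, and 3 mnn- arrays titled X46_Y79, Y79_X46 and Y79_Y79. The remaining 18 arrays held embryos and were not used. All adults were whole flies aged 3 to 5 days after eclosion, kept at 25 °C, and no other allele or treatment is named. The free-text description attached to each adult array calls the flies homozygous for null alleles, wt and control included, which contradicts the titles, so the titles were used. No label says whether the arrays of a group came from separate cultures, so p-values measure only the spread between these arrays.

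Each value is a log2 hybridisation signal of a probe set, so a difference of 1 is a doubling or halving of signal. All 13966 probe sets were tested together with limma over the 11 adult arrays. The levels were non-mutant, heterozygous and mnn- females, and non-mutant and mnn- males. Each level pools arrays of unlike title, such as wt with X113_X84. The spread behind each standard error (SE) and p-value therefore includes differences between stocks or crosses. Adjusted p refers to the Benjamini-Hochberg value over all 13966 probe sets, and 0.05 was the threshold. With 2 arrays against 2, an exact permutation test of 1 gene cannot go below 0.333. In RNA from whole flies, fewer cells of a type and less RNA per cell cannot be told apart.

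The arrays differ in ways that the mutant labels do not give. Sex markers fit the labelled sex in all 11 arrays for the 11 measured male markers and for 5 of 7 measured female markers. The wt male array was above every other male array for all 7 female markers, by 0.97 to 4.01, and for 20 of 21 yolk, eggshell and ovary genes. Across probe sets the wt female array correlated with the other females at 0.9857 to 0.9890, and control, heterozygote 5 and the mnn- arrays with each other at 0.9936 to 0.9964. Heterozygote 4 correlated with the mnn- arrays at 0.9881 and 0.9895, beside 0.9872 and 0.9890 for wt, but with control at 0.9950 and heterozygote 5 at 0.9917. Control and wt females differed by an SD of 0.26 across probe sets, against 0.17 between the mnn- arrays. Heterozygote 4 was above both non-mutant females for 15 of 16 accessory gland genes and for 23 of 24 muscle genes, and for 5195 of all 13966 probe sets. For these reasons each non-mutant array is given beside the mean.

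In mnn- females a single probe set passed the test, CG9682, which fell. That is 0.00716% of the probe sets, and 0 rose. At an unadjusted p under 0.05 stood 563 probe sets (4.03%), 338 lower (2.42%) and 225 higher (1.61%), fewer than the 698 that this threshold alone would give. Both mnn- arrays lay below both non-mutant arrays for 2374 probe sets (17.0%) and above them for 2617 (18.7%). The median difference over all probe sets was -0.003. The count of calls depends on the arrays and levels used: 47 probe sets (0.337%) passed, 4 higher and 43 lower (0.308%), when wt and control had a level each. Over these the mnn- females differed from wt by a median of -2.085 and from control by -0.279. The count was 56 without the control female, and 0 without the wt female, either heterozygote, either mnn- female, or mnn- male 9 or 10.

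Mnn1 itself is read first. It read 5.63 in the wt female and 5.75 in the control female. It read 6.17 and 5.91 in the mnn- females. Both mnn- values lay above both non-mutant values, so this probe set gave no lower signal in mnn- females. The difference was 0.36 ± 0.15 (SE), with an unadjusted p of 0.0359 and an adjusted p of 1.0 in limma. Heterozygote 4 read 5.63, and heterozygote 5, at 5.96, lay between the mnn- arrays. In males the difference was -0.09 ± 0.14, and the arrays overlapped. Where the probes lie relative to the lesions of the alleles is not given, so the reading checks neither the labels nor the loss of protein. The nearest measured genes on either side of Mnn1 on arm 2L, by gene order in RefSeq Release 6, were milt, Caper, Rab30, MME1 and Pcp on one side and Sem1, Nuf2, Ugt307A1, Pvf2 and Pvf3 on the other. Their differences ran from -0.06 to 0.24, and none had an unadjusted p under 0.05. Milt, a mitochondrial transport adaptor and the immediate neighbour, had the highest, 0.24 ± 0.13.

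**Figure D1:**
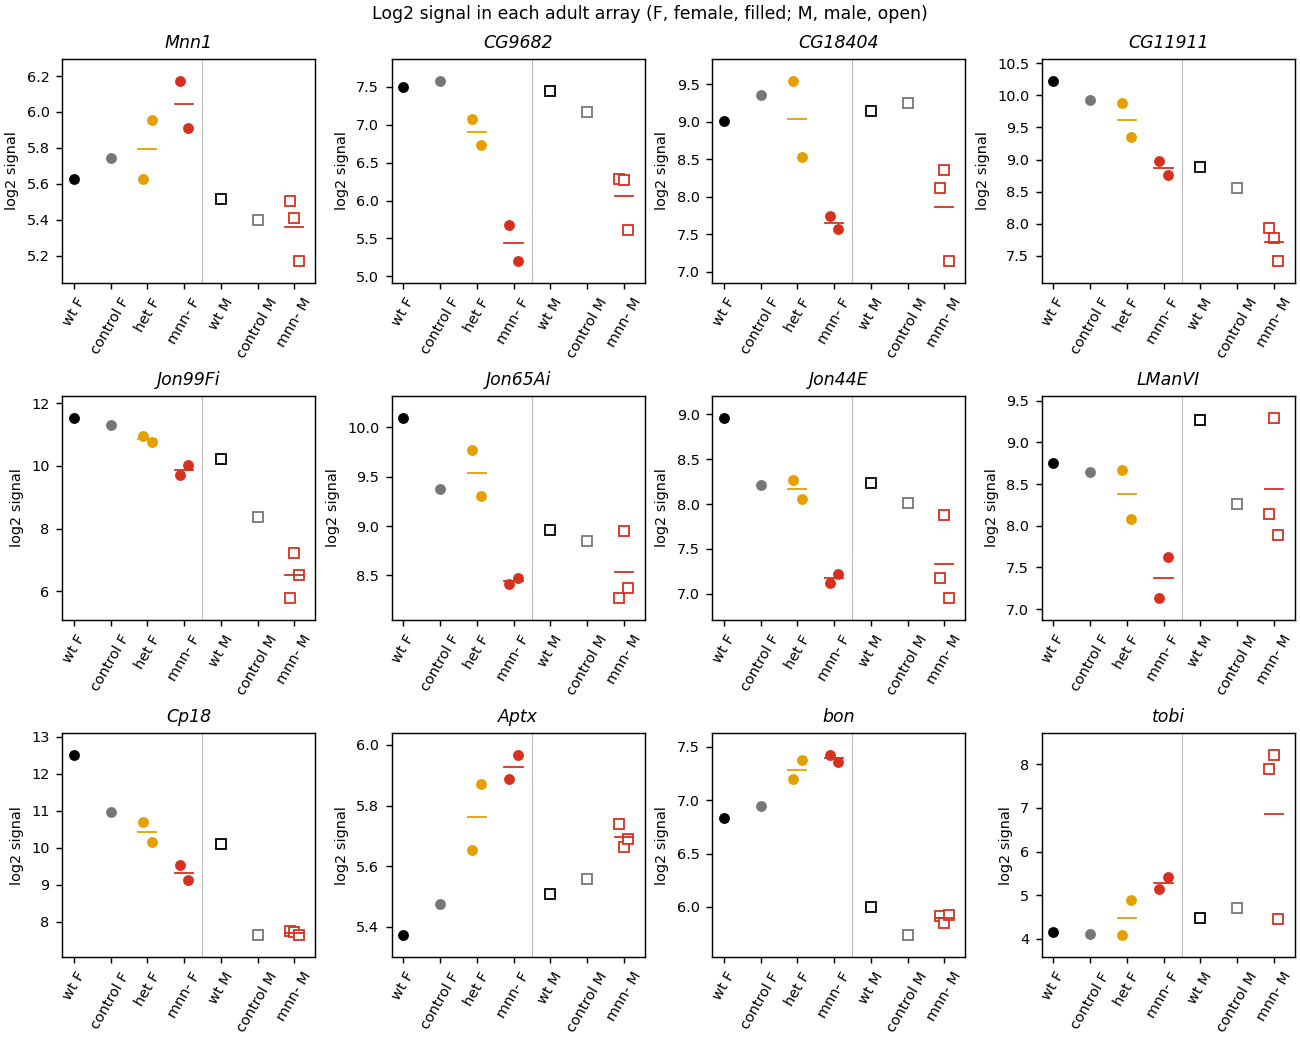
Log2 signal of 12 named genes in each adult array. Filled circles are females, open squares males, and short lines group means. CG9682 reads 7.50 and 7.58 in non-mutant females and 5.67 and 5.20 in mnn- females, with both heterozygotes between them. Mnn1 reads 6.17 and 5.91 in the mnn- females and 5.63 and 5.75 in the non-mutant ones.

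CG9682 and serine proteases led the lower side by p. CG9682, a gene on arm 3R whose function is not annotated in the sources used here, read 7.50 in wt and 7.58 in control females. It read 5.67 and 5.20 in the mnn- females. The groups were far apart compared with the spread within each. It fell by 2.10 ± 0.23 on the log2 scale, 4.30 times less signal, with an adjusted p of 0.031 (limma). Heterozygote 4 read 7.08 and heterozygote 5 read 6.74, between the groups. In males the wt array read 7.44, the control 7.17, and the mnn- arrays 6.28, 6.27 and 5.61. The male groups did not overlap either, and the male difference was -1.25 ± 0.21 (adjusted p = 0.118). The female difference lay between -2.34 and -1.87 under all 18 alternative settings, while the call held in 9 of them and adjusted p ran from 0.00372 to 0.983. Adjusted p was 0.307 without the wt female, 0.0644 without either heterozygote, and 0.158 and 0.983 without mnn- female 7 or 8. It was 0.0622 and 0.0563 without mnn- male 9 or 10, 0.101 after quantile normalization and 0.0566 after centring.

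CG18404 lies next to CG9682 on arm 3R with no gene between them in RefSeq order. It read 9.01 in wt and 9.35 in control females. It read 7.74 and 7.57 in the mnn- females. The groups did not overlap, and the difference was -1.53 ± 0.37 (unadjusted p = 0.00179, adjusted p = 1.0). Heterozygote 4, at 9.55, was above both non-mutant arrays, and heterozygote 5, at 8.53, lay in the gap. In males the difference was -1.33 ± 0.34, again with no overlap. Of the 10 largest differences from the control female among single-gene probe sets, those of CG9682 and CG18404 came first.

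The next 11 genes by smallest p on the lower side did not pass in the main comparison (each adjusted p 1.0). CG11911, listed with a serine protease synonym, read 10.23 and 9.92 in wt and control and 8.98 and 8.76 in mnn- females. Its difference was -1.20 ± 0.21 in females and -1.01 ± 0.19 in males, with no overlap in either sex. CG8299, another gene with a serine protease synonym, read 7.60 and 7.51 against 6.73 and 6.90, a difference of -0.74 ± 0.15. The Jonah proteases Jon65Ai, Jon44E and Jon99Ci are described with their family.

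Outside the gut proteases the same rule named 6 genes of other kinds. Scp2, a sarcoplasmic calcium-binding protein, read 7.33 and 6.99 in wt and control and 6.55 and 6.47 in mnn- females. Its difference was -0.65 ± 0.14 in females but -0.03 ± 0.13 in males. Tok, a tolloid-type metalloprotease that acts in TGF-beta family signalling, read 4.12 and 4.15 against 3.41 and 3.39. Its difference was -0.74 ± 0.17 in females and -0.02 ± 0.15 in males, where the mnn- arrays read 4.90 to 5.24 and overlapped the non-mutant ones. Cyp6a21, a cytochrome P450, read 5.83 and 5.71 against 5.28 and 5.00, with -0.63 ± 0.14 in females and -0.55 ± 0.13 in males. CG2157, CG42335 and CG7675 had differences of -0.47 ± 0.10, -0.70 ± 0.15 and -0.87 ± 0.20. Of the 12 named lower genes all 12 had a lower mean in mnn- males too, as did 51.1% of all probe sets. For Scp2, tok and CG2157 (-0.04 ± 0.09) the male difference was smaller than its SE. The male groups did not overlap for 6, where 10.4% of all probe sets had 3 mnn- males below both non-mutant males. Heterozygote 5 lay between the female groups for all 12 and heterozygote 4 for 6, with the other 6 on the non-mutant side. Among all 2374 probe sets lower in mnn- females, heterozygote 5 lay between the groups for 26.5% and heterozygote 4 for 16.1%. The 12 were picked by small p, which favours a wide gap into which a heterozygote can fall. The counts therefore cannot be set against these shares, and an effect of gene dose was not tested.

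On the higher side no gene passed, and the 12 genes of smallest p differed by 0.33 to 0.73. Aptx encodes aprataxin, which repairs abortive DNA ligation ends. It read 5.37 and 5.48 in wt and control and 5.89 and 5.97 in mnn- females, a difference of 0.50 ± 0.10 (unadjusted p = 0.000471, adjusted p = 1.0). Both female groups were tight, and in males it differed by 0.16 ± 0.09 with no overlap.

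Bon (bonus), a TIF1-family transcriptional cofactor, read 6.84 and 6.95 against 7.43 and 7.36. Its difference was 0.50 ± 0.11 in females and 0.03 ± 0.10 in males. Saf-B, a scaffold attachment factor that binds RNA and chromatin, read 6.11 and 6.63 against 7.25 and 6.95, the highest difference of the 12 at 0.73 ± 0.17. It was the one of the 12 that passed against the wt array alone (adjusted p = 0.0119), and control lay between wt and the mnn- arrays. CycT, the cyclin of the transcription elongation kinase P-TEFb, read 6.96 and 7.01 against 7.44 and 7.43. Its difference was 0.45 ± 0.12 in females and -0.38 ± 0.11 in males.

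Slbp, which binds the stem-loop of histone mRNAs, read 7.10 and 7.32 against 7.74 and 7.59, a difference of 0.45 ± 0.13. Trem, a zinc-finger protein needed to start meiotic recombination, read 4.84 and 5.00 against 5.51 and 5.31, a difference of 0.49 ± 0.13. The others were CG5466, CG3281, CG2972, nmdyn-D7, CG7276 and CG8854, between 0.33 and 0.60. Of the 12 named higher genes, 6 had a higher and 6 a lower mean in mnn- males. Heterozygote 5 lay between the female groups for 10 of the 12 and heterozygote 4 for 9, where picking by small p again favours wide gaps.

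The widest empty gaps between the nearest mnn- and nearest non-mutant array give a view without a test. On the lower side they belonged to CG9682, Cp18, Jon99Fi, CG18404, LManVI, LManIII, Jon44E and LManV. All 8 had a lower mean in mnn- males, as did 51.1% of all probe sets. On the higher side they belonged to tobi, CG5466, bon, CycT, Aptx, Hsp26, Cdk2 and CG10445. Tobi, an alpha-glucosidase known as a target of insulin-like signals from the brain, read 4.15 in wt, 4.12 in control, and 5.14 and 5.43 in mnn- females. Its difference of 1.14 had an SE of 0.92, because the mnn- males read 7.88, 8.21 and 4.45 and share the estimate of spread. Hsp26, a small heat shock protein, read 11.20 and 11.21 against 11.72 and 11.62, and Cdk2, a kinase of S-phase entry, 7.38 and 7.50 against 7.87 and 8.00.

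The gut serine proteases held the highest share of genes below both non-mutant arrays among the 26 lists described. Jonah proteases and trypsins are secreted by midgut cells and digest dietary protein. Of 27 measured genes, both mnn- arrays lay below both non-mutant arrays for 17 (63.0%, against 17.0% of all probe sets) and above for 0. The mean was lower for 26 of 27, with a median difference of -0.47 against -0.003 over all probe sets. None passed the test, and 9 had an unadjusted p under 0.05, all lower. Against control alone all 27 were lower, with a median of -0.43. Against wt alone 20 were lower, with a median of -0.19, and 4 passed, all lower (0.931% of all probe sets passed that comparison). The median was -0.34 after quantile normalization. In males it was -0.20, with 24 of 27 lower.

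Jon65Ai read 10.10 in wt and 9.37 in control females, and 8.41 and 8.47 in mnn- females. The wt and control arrays differed by more than the mnn- arrays did. Its difference was -1.29 ± 0.26 (unadjusted p = 0.000424, adjusted p = 1.0) and it passed against wt alone (adjusted p = 0.0117). In males it was -0.38 ± 0.24, and the groups overlapped. Jon44E read 8.96 and 8.21 against 7.12 and 7.22, a difference of -1.42 ± 0.29. Its mnn- males were also below both non-mutant males, by -0.79 ± 0.26 on average.

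Jon99Ci read 9.51 and 8.48 against 7.20 and 7.58, a difference of -1.61 ± 0.36, and in males -0.20 ± 0.33 with overlap. Jon99Fi read 11.53 and 11.32 against 9.71 and 10.01, a difference of -1.56 ± 0.52. Its SE was large because arrays within each male group lay apart, at 10.21 (wt) and 8.38 (control), and at 5.78, 7.23 and 6.52 (mnn-). In males the difference was -2.79 ± 0.47, and the groups did not overlap. With the 6 female arrays alone, Jon99Fi passed beside CG9682 (adjusted p = 0.0216). Jon99Fii, its immediate neighbour in RefSeq order, read 12.68 and 12.42 against 11.66 and 11.85, a difference of -0.80 ± 0.26. CG18404 and Jon99Fi have 23 genes between them on arm 3R.

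Not all gut proteases were lower by such sizes. The trypsin zetaTry read 6.77 and 7.07 against 6.16 and 6.29, a difference of -0.70 ± 0.20. The trypsins alphaTry and betaTry differed by -0.03 ± 0.16 and -0.02 ± 0.18, and yip7 by -0.09 ± 0.14. Jon74E was the one gene with a higher mean, 0.18 ± 0.25. Jon65Aii passed against wt with -2.47 (adjusted p = 2.18e-05) but differed from control by -0.07, since wt read 8.04 and control 5.63. Near-identical genes such as alphaTry and betaTry may share signal. Heterozygote 4 was above both mnn- arrays for 25 of the 27 genes, and heterozygote 5 for 20, against 38.1% and 35.4% of all probe sets. Against the non-mutant arrays, heterozygote 5 was itself below both for 12 of the 27 and above both for 3. Heterozygote 4 was below both for 5 and above both for 16. Over all 13966 probe sets, heterozygote 5 was below both for 3893 and above both for 5229, and heterozygote 4 for 4750 and 5195. Heterozygote 4 was also the array set apart by muscle and accessory gland signals, and their part in these protease counts was not tested.

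**Figure D2:**
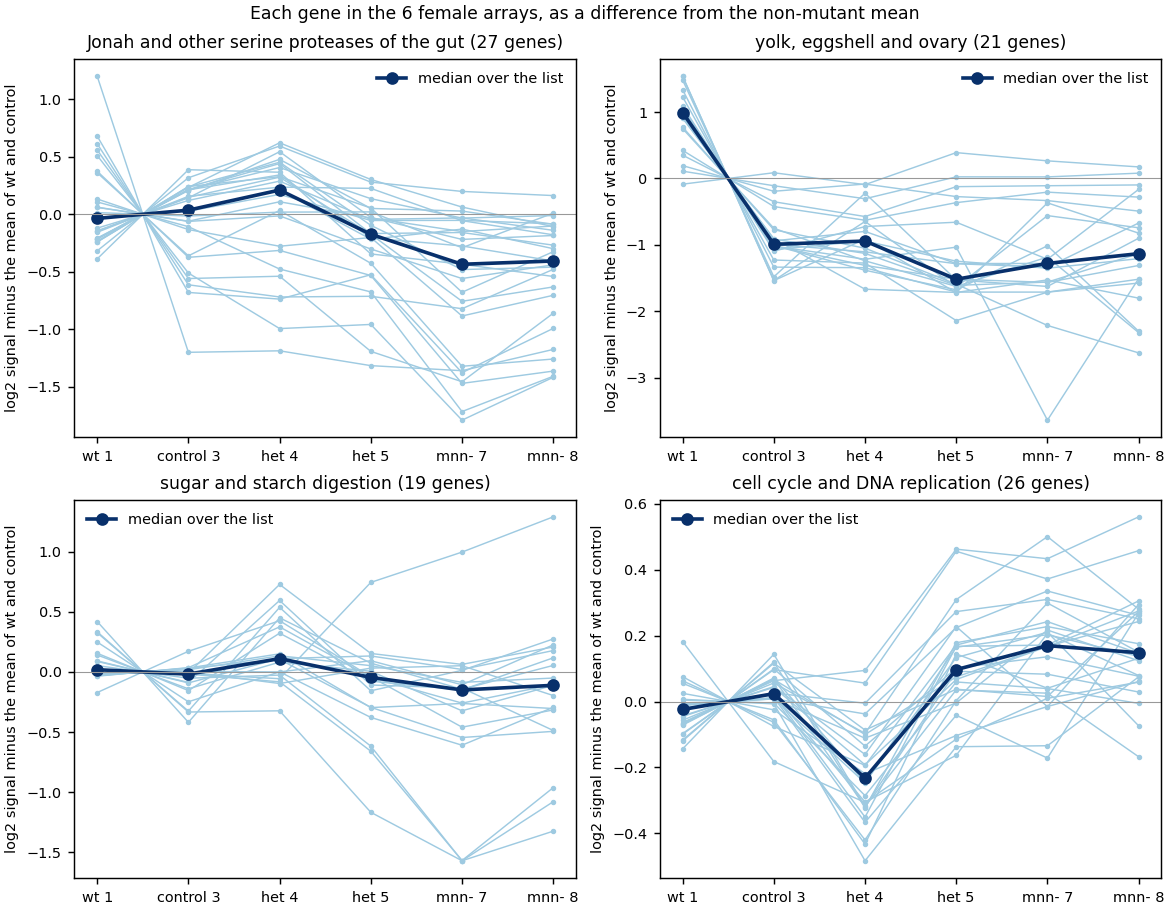
Log2 signal of each gene of 4 lists in the 6 female arrays, minus the mean of wt and control (light lines), with the list median (dark line). Gut protease medians are -0.44 and -0.41 in the mnn- arrays and 0.21 and -0.17 in heterozygotes 4 and 5. Yolk, eggshell and ovary genes are high in the wt array alone. Cell cycle genes are lowest in heterozygote 4, at a median of -0.23.

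Sugar and starch digestion genes, mainly maltases, amylases and alpha-mannosidases of the gut, lay below both non-mutant arrays for 10 of 19 (52.6%). The share of all probe sets was 17.0%. The mnn- arrays lay above both for 2 of the 19, against 18.7% of all probe sets. The median difference was -0.18, against -0.003 over all probe sets. The alpha-mannosidases of the LMan cluster on arm 2L differed most. LManVI read 8.75 and 8.65 in wt and control, and 7.13 and 7.62 in mnn- females, a difference of -1.33 ± 0.43. LManIII read 5.56 and 4.89 against 3.66 and 3.90, a difference of -1.45 ± 0.53. LManV read 9.58 and 9.54 against 7.99 and 8.60, a difference of -1.27 ± 0.39, but a second probe set for LManV gave 0.07. LManII, which lies in another part of the arm, read 7.38 and 7.44 against 6.87 and 6.92, a difference of -0.52 ± 0.17. Each had an adjusted p of 1.0 and was lower than each non-mutant array. In males the same 4 genes differed by -0.32 to -0.19 with adjusted p of at least 0.841. LManIII, LManIV, LManV and LManVI are consecutive genes. LManIV, the fourth of them, differed by -0.22 ± 0.14.

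Lysozymes, also products of the midgut, gave 0 of 7 genes outside the non-mutant range in either direction. Their median difference was 0.51 from wt and -0.25 from control. LysB, LysC and LysE are near-identical copies whose probe sets may share signal. Antimicrobial peptide genes and their regulators had 4 of 19 above and 4 of 19 below both non-mutant arrays, with a median of -0.01. That is 21.1% each, near the 18.7% and 17.0% of all probe sets.

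Detoxification genes showed a smaller shift. Of 56 measured cytochrome P450 genes, 22 (39.3%, against 17.0% of all probe sets) lay below both non-mutant arrays. Above both lay 3 (5.36%, against 18.7%), and the median was -0.13. Cyp6a23 read 6.32 and 6.07 against 5.14 and 5.45, a difference of -0.90 ± 0.24. Cyp6d5 read 8.72 and 8.57 against 8.12 and 8.15, a difference of -0.51 ± 0.14. Cyp318a1 went the other way, at 0.36 ± 0.11, but a second probe set for Cyp318a1 gave 0.02. In males the P450 median was -0.05. Heterozygote 5 was also below both non-mutant arrays for 25 of the 56 P450 genes, and heterozygote 4 for 8. Over all 13966 probe sets these counts were 3893 and 4750. Glutathione S-transferases and UDP-glycosyltransferases lay below for 11 of 28 (39.3%), with a median of -0.11. GstD1, a glutathione transferase, read 12.12 in wt and 10.26 in control, against 9.71 and 9.69, and passed against wt alone (-2.42, adjusted p = 0.000693) with -0.56 against control.

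Eggshell genes show how far the outcome turns on the wt array. These genes encode chorion and vitelline membrane proteins, which follicle cells make late in oogenesis, and the list adds yolk proteins. Of 21 measured genes 12 (57.1%, against 17.0% of all probe sets) lay below both non-mutant arrays. Above both lay 1 (4.76%, against 18.7%), and the median was -1.26. Against wt alone the median was -2.26 and 16 fell by the test (0.802% of all probe sets did). Against control alone it was -0.22, 0 passed, and 13 of 21 were lower. Control minus wt had a median of -1.98, and that comparison shares the wt array. No gene of the list passed against the mean of both (lowest adjusted p 1.0), while 9 passed with wt and control as separate levels and 5 without the control array. Heterozygote 4 was itself below both non-mutant arrays for 14 of the 21 genes and above both for 0. Heterozygote 5 was below both for 16 and above both for 1. Over all 13966 probe sets the counts below both were 4750 and 3893. The lower signal was thus not particular to the mnn- arrays.

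Cp18, a major chorion protein, was the gene of the list furthest below control. It read 12.51 in wt and 10.97 in control females, and 9.53 and 9.11 in mnn- females. The mnn- arrays lay below both non-mutant arrays, which themselves differed by 1.55. Its difference was -2.42 ± 0.65 against the mean, -3.19 against wt (adjusted p = 3.64e-05) and -1.65 ± 0.22 against control (adjusted p = 0.108). The heterozygotes read 10.69 and 10.15, between control and the mnn- arrays. Without heterozygote 4, 1 probe set passed against control.

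Femcoat, an eggshell gene expressed in females, read 7.22 and 5.41 against 4.79 and 4.51. It differed by -2.57 from wt (adjusted p = 1.71e-05) and by -0.76 from control. Cp15 read 13.44 and 11.40 against 8.78 and 10.91, so the mnn- arrays lay far from each other. Cp36 and Cp38 went the other way against control. Cp36 read 9.55 in control and 10.53 and 10.34 in mnn- females, and Cp38 read 9.04 against 10.21 and 9.75, while wt was above 12 for both. The yolk protein genes Yp1, Yp2 and Yp3, made in fat body and ovary, read 12.35 to 13.57 in mnn- females and differed from control by 0.16 to 0.25. Their SEs reached 0.93, since the wt male read 11.61 for Yp1 and the other males 7.32 to 7.59. Without the wt male, 0 of the 21 genes passed as well. Of 19 germ plasm and axis genes, which mark the germline of the ovary, 9 (47.4%, against 18.7% of all probe sets) were above both non-mutant arrays. Below both were 3 (15.8%, against 17.0%), and the median was 0.07.

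**Figure D3:**
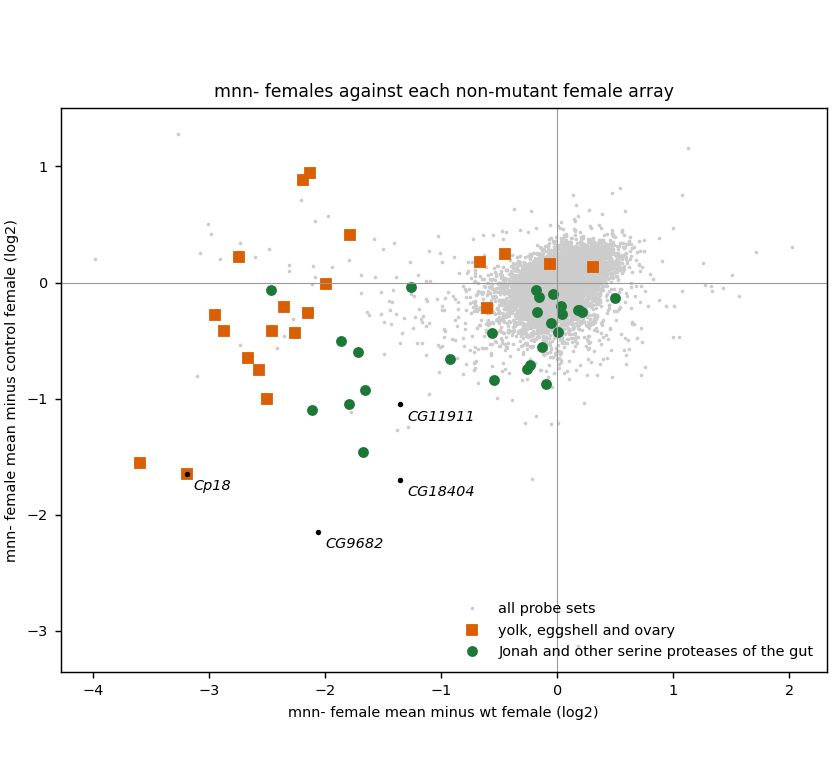
Mean of the 2 mnn- arrays minus wt (x axis) against the same mean minus control (y axis), log2, for 13966 probe sets. The axes share the mnn- arrays, so points lie along the diagonal in part by construction. Eggshell genes (squares) spread to the left with a median of -2.26 on x and -0.22 on y, while CG9682 and CG18404 lie low on both axes.

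Set against the wt array alone, 130 probe sets passed, of which 112 fell and 18 rose. Of these, 129 lay nearer to control than to wt in the mnn- arrays. Besides eggshell genes they held Muc4B, a mucin, which read 7.61 in wt, 3.43 in control, and 3.19 and 4.08 in mnn- females (-3.98, adjusted p = 0.000111). Fit, a female fat body gene of the head, read 10.06 in wt, 5.51 in control, and 7.25 and 6.34 in mnn- females, below wt and above control. Among those that rose were SrpRalpha, a subunit of the signal recognition particle receptor, by 1.32 (adjusted p = 0.000925), and CG7565, by 1.51 (adjusted p = 0.000453). They differed from control by -0.03 and 0.07. Against control alone 0 probe sets passed in limma, with 501 at an unadjusted p under 0.05, and CG9682 and Cp18 had the smallest adjusted p, 0.108. Control against wt, which shares the wt array, gave 80 calls (0.573%), 66 lower in control (0.473%) and 14 higher. These fits place wt and control at levels of their own, and a lone array is assumed to vary like the other groups.

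Genes of dividing cells stood slightly higher. Of 26 measured cell cycle and DNA replication genes, 14 (53.8%, against 18.7%) lay above both non-mutant arrays and 0 below. The median was 0.16, 0.18 against wt and 0.14 against control, and none passed. Mcm3, a subunit of the replicative helicase, read 7.07 and 7.09 against 7.42 and 7.34, a difference of 0.30 ± 0.12. Orc1, of the origin recognition complex, read 6.76 and 6.96 against 7.23 and 7.32, a difference of 0.42 ± 0.18. Mcm2 differed by 0.39 ± 0.20. All 26 genes were higher in both mnn- arrays than in heterozygote 4, where 35.8% of all probe sets were. Heterozygote 5 was below both mnn- arrays for 10 (38.5%, against 26.2% of all probe sets). It was itself above both non-mutant arrays for 17 of the 26, as for 5229 of all 13966 probe sets. Heterozygote 4 was above both for 1 and below both for 22. The higher signal was thus not particular to the mnn- arrays. In males the median was -0.12, with 23 of 26 lower. The median signal of the list was 5.14 in the wt male and 4.79 in the control male. It was 4.86, 4.69 and 4.89 in the mnn- males, below the wt male but on both sides of the control male.

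Chromatin regulators related to menin showed shifts of similar size. Polycomb group genes, which silence developmental loci, lay above both non-mutant arrays for 8 of 15 (53.3%, against 18.7% of all probe sets). Below both lay 1 (6.67%, against 17.0%), and the median was 0.14. Pcl, a partner of the H3K27 methyltransferase, read 6.87 and 7.04 against 7.21 and 7.18, and its difference was 0.24 ± 0.11. E(z), the methyltransferase itself, differed by 0.20 ± 0.11. Heterozygote 5 was also above both non-mutant arrays for 9 of the 15 Polycomb genes, and heterozygote 4 for 1. Over all 13966 probe sets these counts were 5229 and 5195. Genes of trithorax and H3K4 methylation complexes lay above for 9 of 21 (42.9%) and below for 4, with a median of 0.08, and Mnn1 is among them. Cfp1, which targets the Set1 complex to CpG-rich promoters in mammals, read 6.88 in wt and 7.30 in control, against 7.47 and 7.38. Osa, a Brahma complex subunit, was lower, at -0.32 ± 0.14. The 4 measured Hox genes, classic targets of both groups, read 2.48 to 4.51 in mnn- females and differed by -0.10 to 0.06. The mnn- medians of the Polycomb and trithorax lists in males were -0.08 and -0.10.

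Menin-deficient flies are known for altered responses to DNA damage. Repair and checkpoint genes lay above for 9 of 26 (34.6%, against 18.7% of all probe sets). They lay below for 4 (15.4%, against 17.0%), with a median of 0.08. Irbp, the fly Ku70, had the smallest p, at 0.25 ± 0.13. Signalling genes of the JNK, AP-1 and TGF-beta pathways lay above for 5 of 27 (18.5%) and below for 6 (22.2%). These shares are near those of all probe sets, 18.7% and 17.0%, and no gene of the list passed. Jra, the fly Jun, read 7.57 and 7.71 against 7.98 and 7.84, a difference of 0.27 ± 0.12. Dad, an inhibitory Smad, differed by -0.24 ± 0.11 and the ligand mav by -0.22 ± 0.10.

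Muscle and mitochondrial genes depended on which non-mutant array was used. Of 24 muscle structure genes 7 (29.2%, against 17.0% of all probe sets) lay below both arrays and 0 above (against 18.7%). Their median was -0.37 against control and -0.01 against wt. Fln (flightin), a thick-filament protein of flight muscle, was below both. It read 5.89 and 5.87 against 5.21 and 5.13, a difference of -0.71 ± 0.19. Act88F, the flight muscle actin, read 6.08 and 6.04 against 5.84 and 5.10, a difference of -0.59 ± 0.20, and its male difference was -1.61 (adjusted p = 0.0135). Of 29 Krebs cycle and respiratory chain genes 11 (37.9%) lay below both arrays and 0 above. All 29 were lower than control, with a median of -0.24, but the median against wt was 0.02.

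Idh3b, a subunit of the NAD-dependent isocitrate dehydrogenase, read 8.28 and 8.38 against 8.11 and 7.93, a difference of -0.31 ± 0.10. The male medians of the muscle and respiratory lists were -0.32 and -0.24. Basement membrane and haemocyte genes lay below for 8 of 23 (34.8%, against 17.0% of all probe sets) and above for 0. They were led by the laminin subunits LanB2 (-0.37 ± 0.13) and LanB1 (-0.26 ± 0.10). Lipid genes lay below for 7 of 25 (28.0%), with Lsd-1, a lipid droplet perilipin, at -0.69 ± 0.25, and clock genes for 5 of 12 (41.7%), with Pdp1 at -0.30 ± 0.13.

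**Figure D4:**
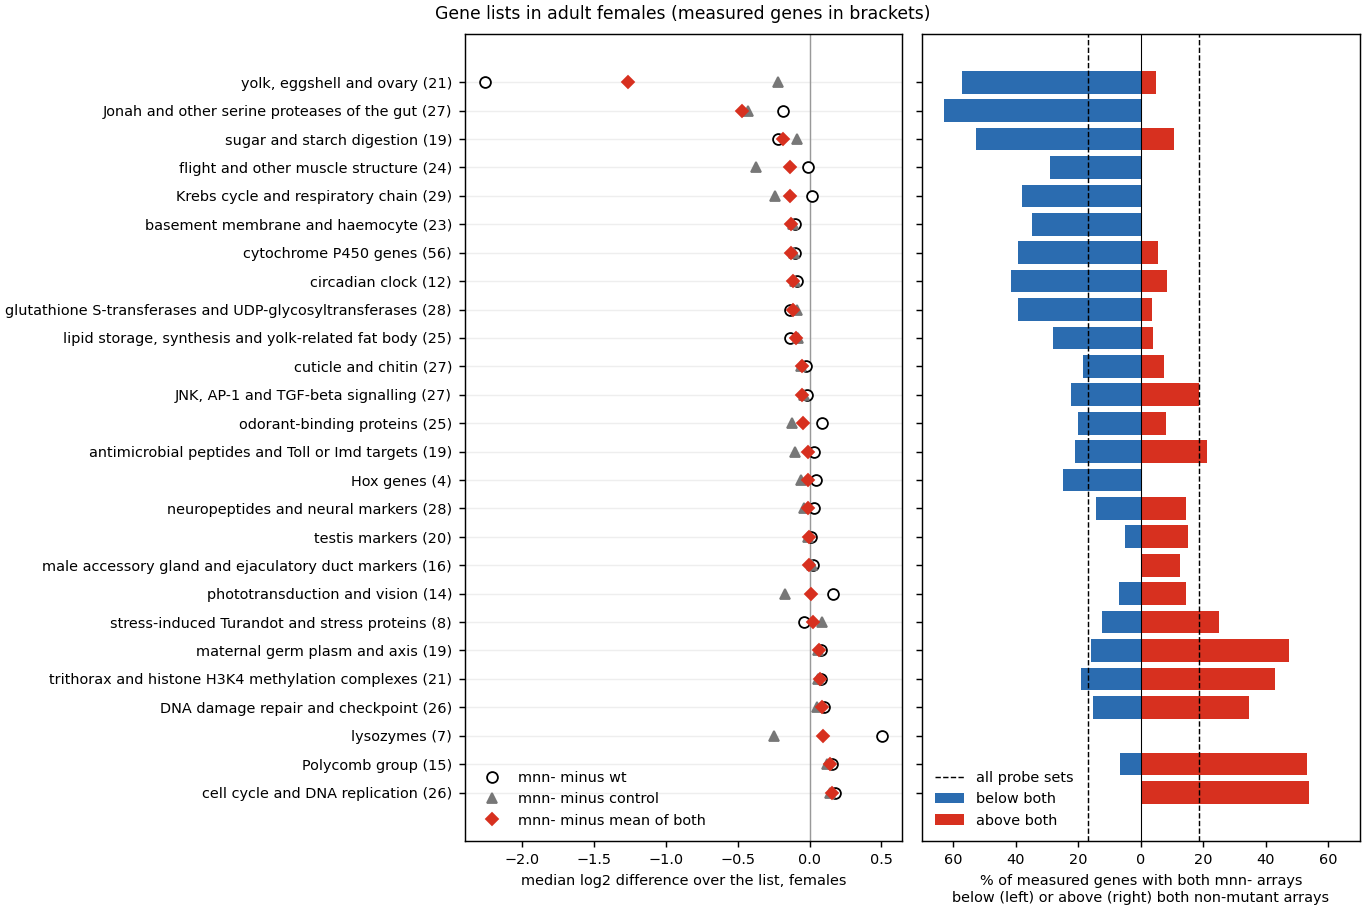
The 26 gene lists in females. Left, the median log2 difference of mnn- females from wt, from control and from the mean of both. Right, the percentage of measured genes with both mnn- arrays below or above both non-mutant arrays, with dashed lines at the values of all probe sets, 17.0 and 18.7. Gut proteases reach 63.0% below and cell cycle genes 53.8% above, and eggshell medians differ most between wt and control.

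The other lists lay closer to the background. Cuticle and chitin genes had 5 of 27 below (18.5%, against 17.0% of all probe sets) and 2 above (7.41%, against 18.7%). Among them Cpr49Ab differed by -0.89 ± 0.27 and Cpr72Ec by -0.76 ± 0.24. Odorant-binding protein genes had 5 of 25 below and 2 above, and Obp99c passed against wt alone (-1.16, adjusted p = 0.00112). Vision genes had 1 of 14 below and 2 above, with rdgB at 0.33 ± 0.11, and neural genes had 4 of 28 on each side. Stress protein genes had 2 of 8 above and 1 below, and Hsp68 differed by -1.10 from wt and 0.01 from control. Testis markers and accessory gland markers, which mark male tissue, both had medians of -0.01 in females. Testis markers lay above both non-mutant arrays for 3 of 20 and below for 1, and accessory gland markers above for 2 of 16 and below for 0.

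The sexes were set side by side in a fit that shares the estimate of spread but no array. Both sexes carry the titles wt, X113_X84, X46_Y79 and Y79_X46, so likeness between them can also come from the stocks and crosses. Of the 338 probe sets lower in mnn- females at an unadjusted p under 0.05, 251 (74.3%) had a lower mean in mnn- males, against 51.1% of all probe sets. Of the 225 higher in females, 127 had a higher mean in males, as did 6774 of all 13966 probe sets. In males 4 probe sets passed, all lower (0.0286%), and 105 without the control male, 48 without the wt male, 18 without mnn- male 9 and 7 without mnn- male 10. No probe set passed the test of the sex difference itself (637 at an unadjusted p under 0.05). That count was 27 without the control male, 2 without the wt male, 10 without the control female and 9 without mnn- male 9. Its smallest p belonged to Acp26Aa, a seminal fluid protein gene at 2.73 to 2.98 in all 6 females, with a female difference of 0.19, a male difference of -1.13 and an adjusted p of 0.0619. Acp76A, CycT, CG2926, CG13917 and CG4520 followed, each with an adjusted p of 0.992.

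CG2926 read 6.19 in wt and 6.18 in control females, and 6.46 and 6.37 in mnn- females, a difference of 0.22 ± 0.09. It read 5.48 in the wt male, 5.47 in the control male, and 5.03, 5.14 and 5.07 in mnn- males, a difference of -0.39 ± 0.08. The mnn- arrays lay above the non-mutant ones in females and below them in males, with no overlap in either sex. CG13917 differed by 0.23 ± 0.10 in females and -0.41 ± 0.09 in males, and CG4520 by -0.24 ± 0.15 and 0.68 ± 0.14.

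**Figure D5:**
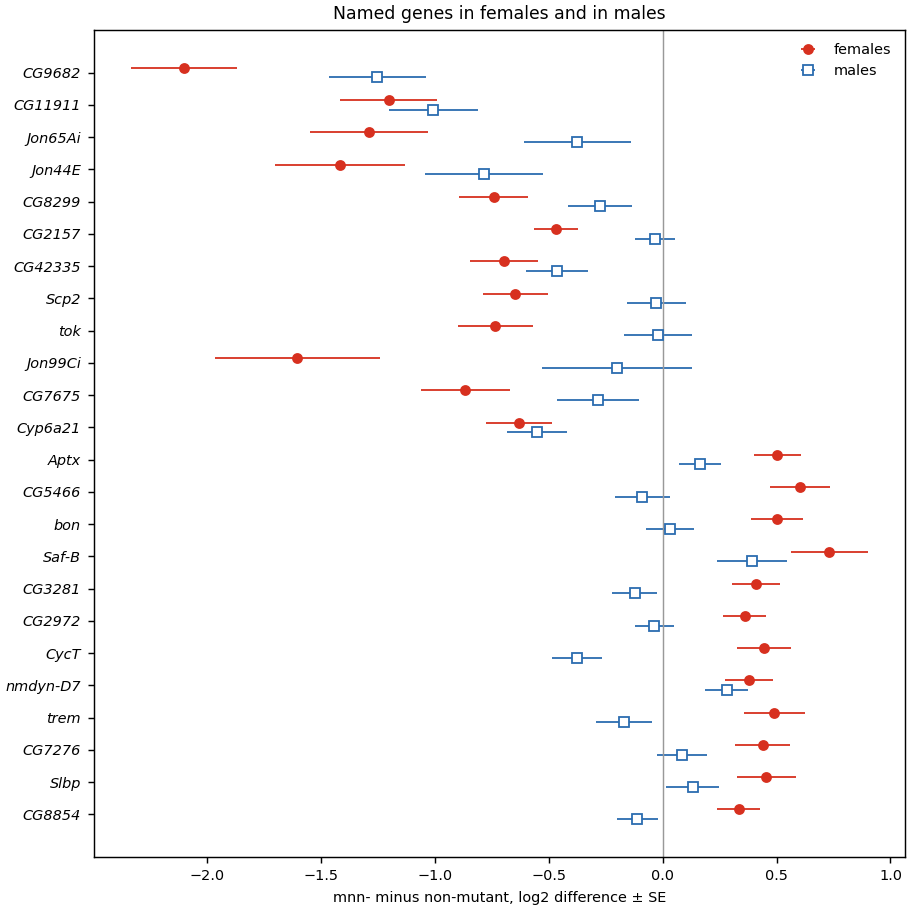
Difference between mnn- and non-mutant flies, log2 ± SE of the fit, for the 12 lower and 12 higher named genes, in females (filled) and males (open). All 12 lower genes have male differences below 0, as do 51.1% of all probe sets, while the higher genes split 6 to 6. Those of CG2157, Scp2 and tok are smaller than their SE.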

How the data were processed

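Total RNA of whole adult flies was extracted with Trizol, biotin-labelled and hybridised to Affymetrix arrays, per the labels' protocols. The authors deposited log2 values per probe set. The submitters' processing notes name RMA and affy 2.12.0. Whether all arrays were summarised together, and the genome build, is not given in the sources used here. RMA shrinks low signals, so small differences of dim genes are understated, and signals of different probe sets are not compared. Of 14010 probe sets 44 controls were left out. Of the 13966 tested, 12443 name 1 gene, 327 several and 1196 none, and 12394 matched a gene of RefSeq Release 6, used for names, arms and gene order.

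Values were used as deposited. limma 3.58.1 in R 4.3.3 (lmFit, eBayes, two-sided) fitted non-mutant, heterozygous and mnn- females and non-mutant and mnn- males as levels over 11 arrays, with 6 residual degrees of freedom and Benjamini-Hochberg adjustment. A second fit gave wt and control their own levels, with 4. The script was tested on simulated data. Arrays give no counts, so their number limits the precision. A gene with several probe sets is given by the one of highest mean: of 41 such list genes the sets differed in sign for 22.

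The members and lists were chosen with earlier results of these data known. Named are Mnn1, the 12 largest passing genes per direction whose groups do not overlap (filled up by smallest p), the 8 widest gaps per direction, the 6 smallest p of the sex difference, up to 4 genes per list by smallest p, and 5 neighbours on each side of Mnn1. Other genes were chosen after their values were seen: Jon99Fii, Jon74E, Jon65Aii, alphaTry, betaTry, yip7, LManIV, Cp15, Cp36, Cp38, Yp1 to Yp3, Mcm2, Muc4B, fit, SrpRalpha, CG7565 and Mst57Da. Alternatives covered the arrays included, the scaling, a filter at a mean of 5, the variance model and array weights.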

Additional observations from a re-analysis of the deposited data

Results flagged for a closer look

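The heterozygous females belong to neither group of the comparison of mnn- with non-mutant females, although they share its estimate of spread. In 1 of them, genes that mark male tissue read above the non-mutant females. In heterozygote 4 (X113_Y79), 15 of 16 measured accessory gland and ejaculatory duct genes were above both non-mutant females, as were 5195 of all 13966 probe sets. Acp95EF, a seminal fluid protein gene, read 6.64 there, against 4.37 in wt, 4.25 in control, 4.32 and 4.59 in mnn- females and 4.66 in heterozygote 5. Mst57Da read 7.26 against at most 5.13 in the other females, and male arrays read 12.26 to 12.43. Of 20 testis markers, 13 were above both non-mutant females.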

How the results depend on the processing

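The mnn- and non-mutant groups share no title, so their comparison was not paired. The sexes do share the titles wt, X113_X84, X46_Y79 and Y79_X46, but the fit of the sex difference did not pair them. The count of probe sets in females, 1 as reported, was 2 with the 6 female arrays, 47 with wt and control as separate levels, 0 after quantile normalization, 0 after centring each array on its median, and 0 to 56 when 1 array was left out (56 without the control female). The male count, 4 as reported, was 99 with separate levels, 1 with the filter at a mean of 5, 7 with trend and robust fitting, 2 with array weights, 5 after quantile normalization, 6 after centring and 3 to 105 leaving out 1 array. The sex difference, 0 as reported, gave 19 with separate levels, 2 with trend and robust fitting and 0 to 27 leaving out 1 array. The counts with left-out arrays, with the 6 female arrays and with separate levels differ in the arrays or the residual degrees of freedom used. The other settings keep the same arrays and levels. Why the counts moved was not tested. The following alternatives were added after seeing the data. Against wt alone the 130 calls were 101 to 126 under other scalings, filter and variance model, 70 without mnn- female 7, 80 without mnn- female 8 and 156 without heterozygote 4. Against control alone the 0 calls were 0 under other settings and 1 without mnn- female 8 or heterozygote 4. Mnn1 kept its direction in all 18 alternatives, 0.22 to 0.49, with adjusted p of at least 0.744. No named gene reversed. CG9682 lost its call in 9 of 18 alternatives, and other named genes gained one in 18 instances. Of 156 list medians 21 moved by more than the spread between arrays. Centring moved the median of all probe sets by 0.015. With 2 arrays a group, small changes cannot be told from spread.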

Other observations

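Arm 3R held many of the genes of smallest p. Of the 24 genes named by p in females, 14 (58.3%) lie on 3R, 8 of the 12 higher and 6 of the 12 lower, where 25.3% of the single-gene probe sets with an arm do. The share was 48.0% among the 50 smallest p with groups apart, 35.0% among 100 and 30.5% among 200. Mnn1 is on arm 2L. On the X, 22.5% of 2079 probe sets had both mnn- arrays above both non-mutant arrays and 14.3% below, against 18.9% and 16.9% over all arms. These are descriptions without a test.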
